A study of Mus musculus with 8 samples.

Results

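The motile cilia genes were taken from the table of read counts by the names of gene families that hold parts of the ciliary axoneme, or are named after sperm and its flagellum, and of 2 single genes: the axonemal dynein chains (Dnah, Dnaic, Dnali1), radial spoke genes (Rsph), tektins (Tekt), sperm-associated antigens (Spag), sperm flagellar genes (Spef), and Foxj1 and Hydin. Several Spag genes act outside the axoneme, and Foxj1 encodes a transcription factor. This rule uses names only, no measured value, and it found 28 of the 18939 genes: 10 Spag genes, 6 Rsph genes, 5 tektins, 2 Dnaic genes, 2 Spef genes, Dnali1, Hydin and Foxj1. It found 0 dynein heavy chains, because the table lists them under the older symbol Dnahc. The 11 Dnahc genes are therefore described beside the 28 and are not counted among them. A member with several transcripts (5 of 28) was represented by the transcript with the highest total count.

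Translating ribosome affinity purification (TRAP) was used to collect RNA from mice of genotype OPRM1cre X EGFP-L10a on a C57Bl/6J background, aged 8 to 12 weeks at the start. In these mice Cre is expressed from the Oprm1 locus, which encodes the mu-opioid receptor (MOR), and switches on a Cre-dependent EGFP-L10a ribosomal protein in the Rosa26 locus, so that ribosomes of cells that express or once expressed MOR carry the tag. All mice drank 0.2% saccharin; the morphine group (4 libraries, replicates 3, 4, 7 and 8) also received morphine in it, starting at 0.3 mg/ml and rising to 0.5 mg/ml, for 11 days, and the control group (4 libraries, replicates 1, 2, 5 and 6) received saccharin alone. Each library pooled 2 gross dissections targeted at the paraventricular thalamus (PVT) from mice of the same sex, and each group held 2 libraries labelled male and 2 labelled female.

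Motile cilia beat because axonemal dynein arms slide the microtubule doublets of the axoneme against each other, and radial spokes, the central pair and its projections set the rhythm of this sliding. Foxj1 is the transcription factor that switches on the genes of this machinery, together with factors of the RFX family. In the brain such cilia are carried in tufts by the ependymal cells that line the ventricles and by cells of the choroid plexus, while neurons carry a single primary cilium that lacks the motility apparatus. The PVT lies directly under the ventricular lining of the dorsal midline, beside the choroid plexus.

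Control libraries held 37081346 to 43311792 counts in total and morphine libraries 31151106 to 47582947, and the excitatory neuron marker Slc17a6, which encodes a vesicular glutamate transporter, lay between 215 and 350 CPM, which is the count of a gene scaled to the normalized size of the library. At these depths a gene with a count of 0 in a library could still be present at up to 0.0617 to 0.0974 CPM, the level of 3 counts, which covers counting error only. Control replicate 5 is labelled female but had counts on 4 genes of the Y chromosome, at 28.7% to 35.8% of the level in the libraries labelled male, so its label is uncertain, and results are given without it where they rest on it.

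The markers of ependymal cells were present at low levels. Of the 21, 18 were in the table, 15 had a count in every library and 10 had at least 10 counts in every library. Tmem212 and Sntn had between 0 and 8 counts per library and were at 0 in some of the 8, and Rarres2 had between 1 and 9 counts. Ccdc153 lay between 0.167 and 0.649 CPM, while 1110017D15Rik lay between 1.36 and 2.47 CPM and Ccdc113 between 1.03 and 2.36 CPM. The summed level of the list was 32.3 to 50.5 CPM in the control libraries and 32.8 to 59.8 CPM in the morphine libraries, with S100b, which astrocytes and oligodendrocytes also express, at a mean of 16.5 CPM in the control group and 21.6 CPM in the morphine group. The 28 genes are called motile cilia genes by their names; the cells that their RNA came from were not determined. In such tissue samples fewer cells of a type and less RNA per cell cannot be told apart.

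Most of the motile cilia genes were present at low levels. Of the 28, 26 had a count above 0 in every library, as compared to 82.6% of all genes, and 23 had at least 10 counts in every library. Tekt3, a tektin of sperm flagella, had at most 1 count per library and Spag11b, a defensin-like gene of the epididymis, had at most 2, so that no difference between groups can be read for either. Levels were compared between genes per kilobase (kb) of transcript. The scaffold protein gene Spag9 stood highest at 77.8 CPM per kb (up to 90.8 in a single library), which is the 95.3 percentile of all genes with a matched length. Spag7, whose product is not a known part of the axoneme, followed at 27.8 CPM per kb, and the tektin Tekt5 followed at 27.2 CPM per kb (84.6 and 84.2 percentile); the ranges of these 2 genes over the libraries overlapped.

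All other motile cilia genes lay below 5 CPM per kb, with Rsph3b at 4.58, Rsph3a at 3.90 and Rsph9 at 3.19 as the next. Foxj1 stood at 1.94 CPM per kb (42.5 percentile), and the genes of the dynein arms, Dnaic2, Dnaic1 and Dnali1, stood at 0.501, 0.365 and 0.237 CPM per kb. Hydin, which encodes a very long protein of the central pair, stood at 0.0826 CPM per kb. Below the third place the range of each gene over the libraries overlapped that of the next gene, so neighbours in this order did not differ beyond their spread.

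**Figure D1:**
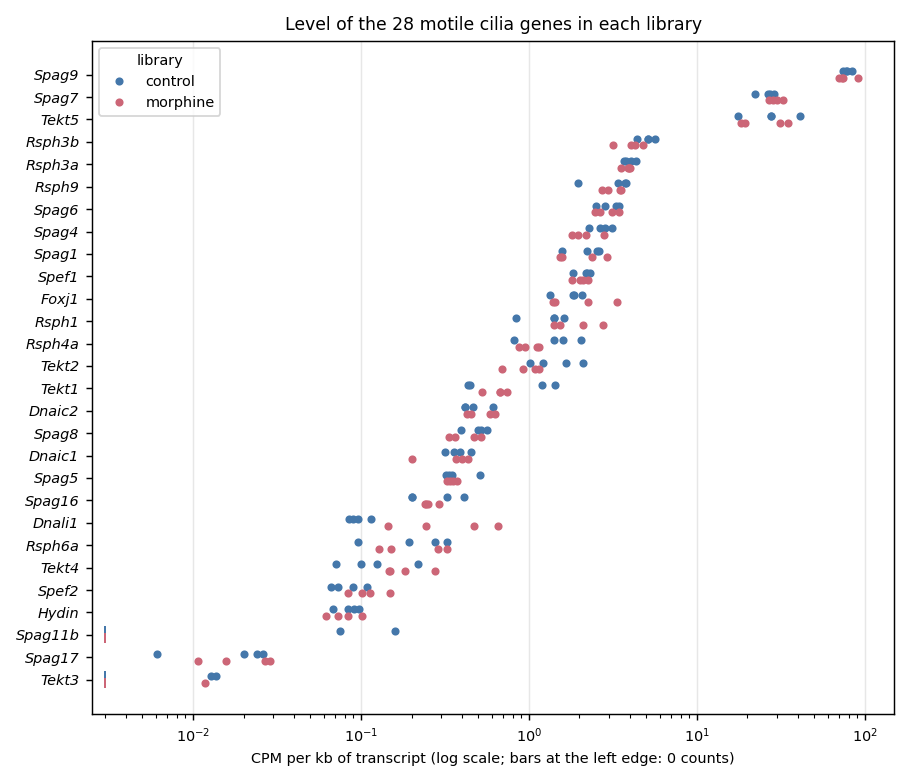
Level of each of the 28 motile cilia genes in CPM per kilobase of transcript (log axis) in the 4 control and 4 morphine libraries, with genes ordered by their mean; bars at the left edge stand for libraries with 0 counts. Spag9, Spag7 and Tekt5 stand apart above 17 CPM per kb, and in 1 gene, Dnali1, all morphine points lie to the right of all control points.

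To describe the promoters of the members, they were searched for the core of the RFX binding motif (GTTGCC) and for the forkhead core bound by FOXJ1 and other forkhead factors (GTAAACA), on both strands. The windows are those of RefSeq on GRCm38.p6, from 250 bases before to 50 bases after each start site, and 23 of the 28 genes have one; a gene was counted where any of its windows held the motif, and no letters of the 2 motifs can overlap on either strand. The RFX core was found for 10 of 23 motile cilia genes (43.5%) and for 3 of the 11 Dnahc genes (27.3%), as compared to 14.1% of 27025 genes with a window. With the 50 bases after the start site left out, the RFX core was found for 5 of 23 (21.7%), as compared to 11.8% of all genes. The forkhead core was found for 1 of 23 (4.35%), Tekt3, as compared to 4.05% of all genes. A match to so short a motif is a description of the sequence and not a binding site.

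The stretches around the match are shown for the 5 members with an RFX core before a start site, Hydin, Dnaic2, Tekt1, Tekt2 and Spag16, to give the bases on either side of it. Each is written on the strand of the gene, 5′ to 3′, with 1 match in capitals, as GTTGCC or, where the other strand carries it, as its complement GGCAAC. The lines of Tekt1 and Spag16 also hold a second match, ggcaac, left in lower case.
Hydin, chr8:110266944-110266976, plus strand: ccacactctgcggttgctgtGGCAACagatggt
Dnaic2, chr11:114727373-114727418, plus strand: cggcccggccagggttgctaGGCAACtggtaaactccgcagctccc
Tekt2, chr4:126325759-126325804, minus strand: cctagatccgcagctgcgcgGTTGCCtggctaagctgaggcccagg
Tekt2, chr4:126325689-126325730, minus strand: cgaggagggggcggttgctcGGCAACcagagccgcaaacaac
Tekt1, chr11:72361883-72361917, minus strand: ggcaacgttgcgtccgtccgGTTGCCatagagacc
Spag16, chr1:69826847-69826892, plus strand: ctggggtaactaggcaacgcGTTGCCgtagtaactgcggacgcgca
The start sites used for Dnaic2, Tekt1, Spag16 and Hydin lie inside the span of the gene, downstream of its first base. Of 38 windows of members and Dnahc genes that were checked, 26 ended in bases found in the matched transcript. In Spag16, Tekt1 and Tekt2 a match on the gene's strand and a match on the other strand stand within the same promoter. The 100 bases before the start site of Dnali1, the gene with the largest fold change among the members with a count in every library, hold neither motif and are shown for comparison.
Dnali1, chr4:125065658-125065757, minus strand: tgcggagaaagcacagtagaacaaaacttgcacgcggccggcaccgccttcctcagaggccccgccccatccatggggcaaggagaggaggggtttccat

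To ask whether chronic morphine changed the translated RNA of these genes, the morphine libraries were compared with the control libraries. No motile cilia gene passed the test after adjustment: in the quasi-likelihood test of edgeR, with P values adjusted by Benjamini-Hochberg across the 18939 genes of the table, 0 of 28 members passed the threshold of 0.05 (lowest adjusted P 0.112), where 0.195% of all genes passed (37 genes; 0.164% were higher and 0.0317% lower with morphine). At an unadjusted P value under 0.05 there were 2 of 28, Dnali1 (higher with morphine) and Tekt2 (lower), as compared to 12.1% of all genes. DESeq2 called 1 of 28, Dnali1 (it gave no adjusted P for Tekt3 and Spag11b), and 2.65% of all genes, and limma-voom called 0 of 28 and 0.121% of all genes. The log2 fold change, morphine over control, was above 0 in 9 members and below 0 in 19, with a median of -0.078 as compared to 0.0088 over all genes, of which 9736 of 18939 were above 0. The 19 include Tekt3 and Spag11b, which have too few counts to read a difference. The size of the fold change was under 0.5 on the log2 scale in 21 of 28 members and in 77.0% of all genes.

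**Figure D2:**
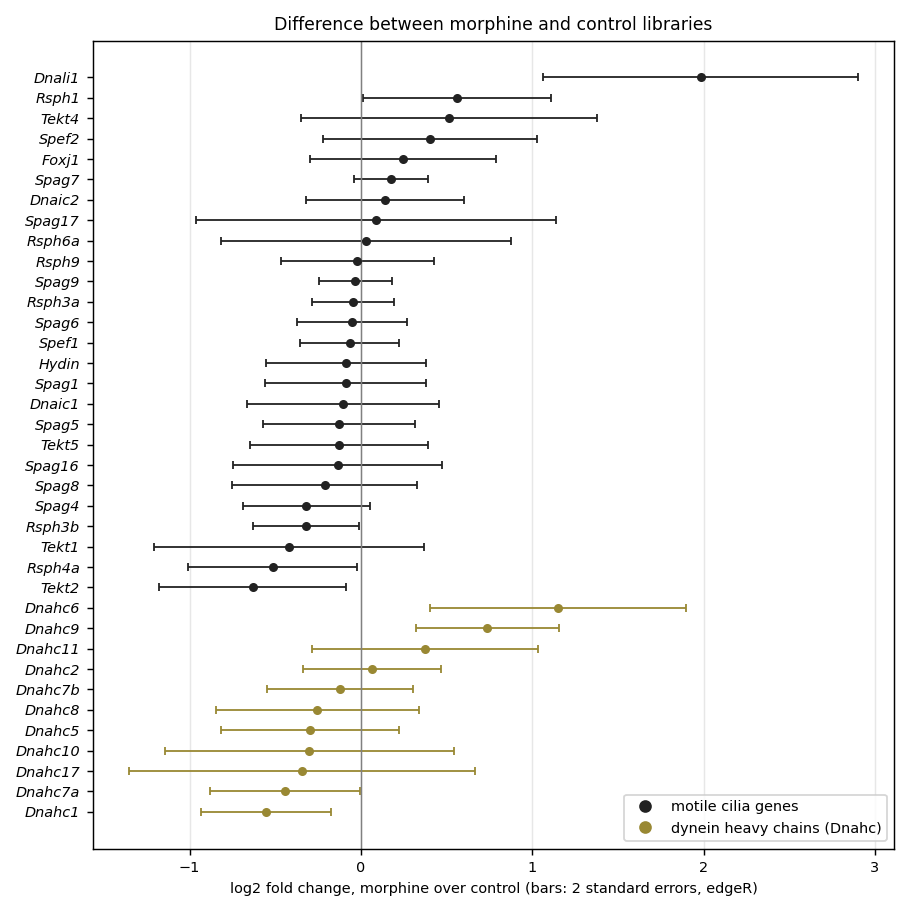
Log2 fold change (morphine over control, edgeR) of the 26 motile cilia genes with a count in every library and of the 11 Dnahc genes; bars are 2 standard errors to either side. Dnali1 lies farthest from 0 at 1.98, most other bars span 0, and 0 of these genes had an adjusted P value under 0.05.

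Foxj1 (chr11:116330704-116335499, minus strand) is the regulator of the program. Its level was 3.51, 4.80, 5.45 and 4.86 CPM in control replicates 1, 2, 5 and 6, and 3.65, 5.87, 3.77 and 8.71 CPM in morphine replicates 3, 4, 7 and 8. The groups overlapped, with morphine replicate 8 above all other libraries and the lowest value in control replicate 1. With all libraries the log2 fold change was 0.25 (SE 0.27, edgeR adjusted P = 0.731), and without morphine replicate 8 it was -0.071, so its sign rests on that library.

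Dnali1 (chr4:125055339-125065657, minus strand), the light intermediate chain of inner dynein arms, was the only member whose groups did not overlap, where 6.55% of all genes had groups that did not overlap (3.34% with morphine above control and 3.21% below). Its counts were 8, 8, 8 and 9 in control replicates 1, 2, 5 and 6, and 11, 33, 16 and 68 in morphine replicates 3, 4, 7 and 8. This corresponds to 0.205 ± 0.0280 CPM in the control group and 0.806 ± 0.489 CPM in the morphine group (SD, n = 4). The control libraries were nearly equal, but at counts this low near-equal values do not show a stable level. The morphine libraries spread widely, from 0.309 CPM in replicate 3, close to the controls, to 1.40 CPM in replicate 8.

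Dnali1 had a log2 fold change of 1.98 (SE 0.46). It missed the threshold in edgeR (adjusted P = 0.112) and passed it in DESeq2 (adjusted P = 0.0138), while the exact two-sided permutation test on log2(CPM + 0.5) gave 0.0286, a value that groups of 4 libraries without overlap always give and that is no further support. Over the alternatives the adjusted P lay between 0.0138 and 0.310. Without morphine replicate 3 edgeR called it (log2 fold change 2.25, adjusted P = 0.0476), and without replicate 8 the log2 fold change was 1.56. At 8 or 9 counts per control library, counting error is a large part of its precision, and 43 of its exonic bases overlap Gnl2 on the opposite strand; the table is not stated to use the strand.

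The summed level of choroid plexus markers was higher in each morphine library than in any control library, as was the level of Dnali1. All 19 were in the table and 17 had a log2 fold change above 0, with a median of 2.02; 15 had an unadjusted P under 0.05 in edgeR, where 0 passed after adjustment (lowest 0.0817), and DESeq2 called 10, as compared to 12.1% of all genes at an unadjusted P under 0.05 and 2.65% called by DESeq2. Their summed level was 45.4, 90.0, 93.4 and 169 CPM in control replicates 1, 2, 5 and 6, and 255, 436, 224 and 698 CPM in morphine replicates 3, 4, 7 and 8. Morphine replicates 8 and 4, the highest for Dnali1, were also the highest for these markers. Morphine replicate 3 had a higher sum than replicate 7 and less Dnali1, but its mean log2 CPM over the list was 1.405, against 1.415 in replicate 7. The controls, at 8, 8, 8 and 9 counts of Dnali1, cannot be ranked by it. None of the defining markers was at 0 in a morphine library: Ttr, the thyroid hormone carrier of the choroid plexus, had 2152 counts or more in each, and Folr1 and Kcnj13 had 17 and 54 or more. Kcnj13 was at 0 counts in control replicate 1, and Steap1 in control replicates 1 and 5. The part of the choroid plexus markers in the difference of Dnali1 was not tested.

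**Figure D3:**
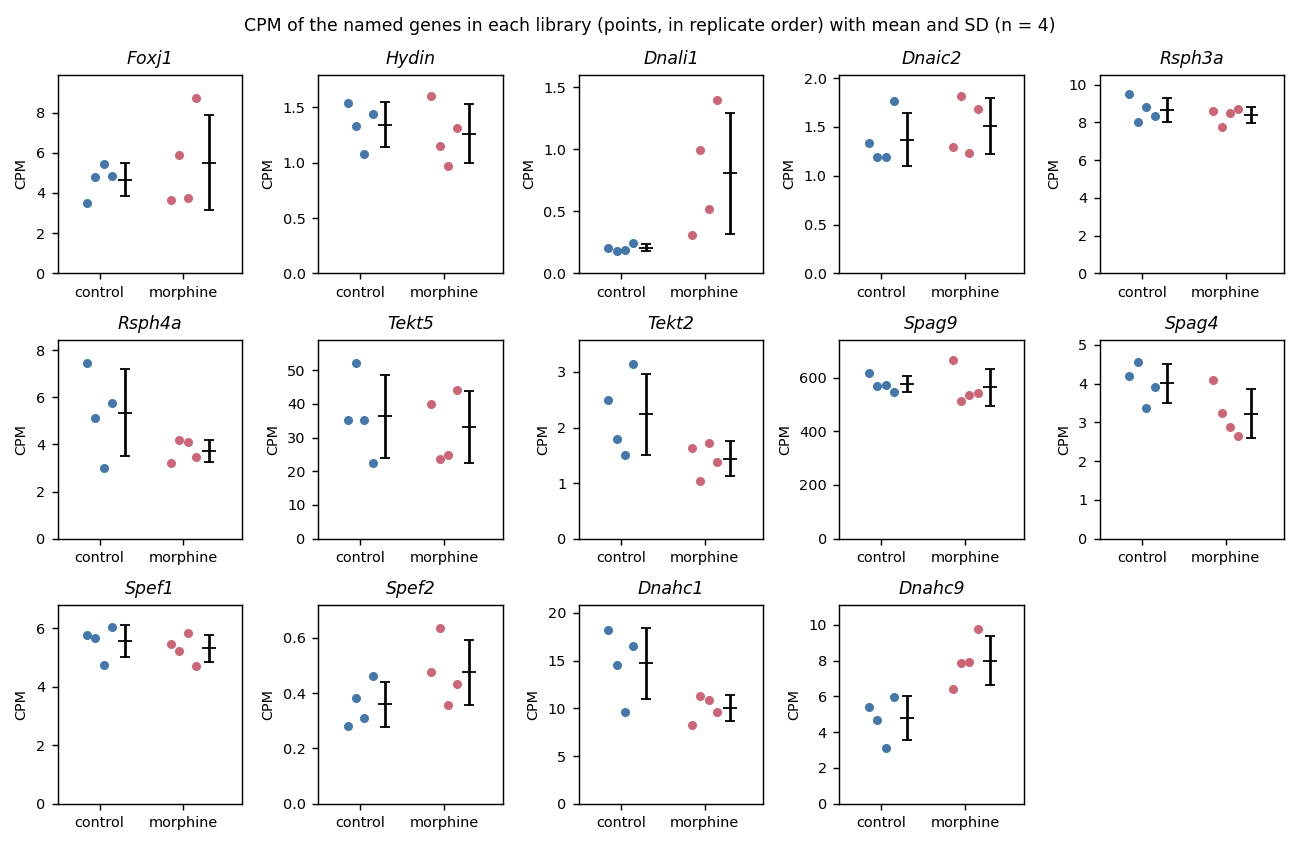
CPM of the 12 named motile cilia genes and of Dnahc1 and Dnahc9 in each library (points, within a group in the order of the replicate numbers), with the mean and SD of each group (n = 4); all axes start at 0. The morphine points of Dnali1 and Dnahc9 lie above all their control points, and the groups of the other genes overlap.

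The intermediate chains of the outer dynein arm did not show the group difference of Dnali1. Dnaic2 (chr11:114721341-114757889, plus strand) had 1.33, 1.19, 1.20 and 1.76 CPM in the control libraries and 1.29, 1.82, 1.23 and 1.69 CPM in the morphine libraries, in the same order of replicates. The groups spanned almost the same range, and the log2 fold change was 0.14 (SE 0.23, edgeR adjusted P = 0.842). Dnaic1 had a log2 fold change of -0.11 (SE 0.28, edgeR adjusted P = 0.904). Within the morphine group, replicates 4 and 8 were the highest for Dnaic2, as they were for Dnali1, and replicates 4 and 7 for Dnaic1.

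The dynein heavy chains, which are the motors of the arms, were all detected in every library. By edgeR 0 of the 11 had an adjusted P under 0.05 (lowest 0.185), 3 had an unadjusted P under 0.05, DESeq2 called 1, Dnahc9, and limma-voom called 0, as compared to 12.1% of all genes at an unadjusted P under 0.05 and 2.65% called by DESeq2. Dnahc9 (Dnah9, chr11:65831324-66168581, minus strand), an outer arm chain, had 5.41, 4.71, 3.11 and 5.97 CPM in the control libraries and 6.44, 7.84, 7.92 and 9.76 CPM in the morphine libraries. The groups did not overlap, as in 6.55% of all genes, and the gap between 5.97 and 6.44 CPM was smaller than the spread within either group. Its log2 fold change was 0.74 (SE 0.21), with an adjusted P of 0.185 in edgeR and 0.0301 in DESeq2.

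Dnahc1 (Dnah1, chr14:31260375-31325891, minus strand), an inner arm chain and the heavy chain with the highest level per kb, pointed the other way. It had 18.2, 14.5, 9.64 and 16.5 CPM in the control libraries and 8.26, 11.3, 10.9 and 9.64 CPM in the morphine libraries. Control replicate 5 lay among the morphine libraries, and the other 3 control libraries lay above them. Its log2 fold change was -0.55 (SE 0.19, edgeR adjusted P = 0.269) with all libraries, and with 1 library left out it lay between -0.73 (without control replicate 5, edgeR adjusted P = 0.0996) and -0.45 (without control replicate 1, edgeR adjusted P = 0.624). Dnahc6, another inner arm chain, had a log2 fold change of 1.15 (SE 0.37, edgeR adjusted P = 0.243), with 0.949 to 2.22 CPM in the control group and 1.81 to 5.81 CPM in the morphine group. The other 8 heavy chains had log2 fold changes between -0.44 (Dnahc7a) and 0.38 (Dnahc11). Dnahc7a and Dnahc7b are uncertain, as 40.3% and 48.4% of their 50-base stretches also occur in transcripts of other genes.

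The radial spokes, which pass signals from the central pair to the dynein arms, were represented by 6 genes. Rsph3a (chr17:7945614-7979556, plus strand), a component of the spoke stalk with the highest mean CPM among the Rsph genes, had 8.01 to 9.49 CPM in the control group and 7.75 to 8.69 CPM in the morphine group (log2 fold change -0.046, SE 0.12, edgeR adjusted P = 0.902). Its reads are shared with its copy Rsph3b: 77.7% of the 50-base stretches of Rsph3a and 84.7% of those of Rsph3b occur in another gene, so the values of both are uncertain. Rsph3b had a log2 fold change of -0.32 (SE 0.15, unadjusted P = 0.0608 and adjusted P = 0.447 in edgeR).

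Rsph4a (chr10:33905111-33916021, plus strand), a gene of the spoke head, had the lowest P value of the family. It had 7.46, 5.13, 2.99 and 5.78 CPM in the control libraries and 3.20, 4.18, 4.09 and 3.47 CPM in the morphine libraries. Control replicate 5 was the lowest of all 8 libraries, and the other 3 control libraries lay above all morphine libraries. The difference (log2 fold change) was -0.52 (SE 0.25, edgeR adjusted P = 0.442), and with 1 library left out it lay between -0.73 (without control replicate 5, edgeR adjusted P = 0.178) and -0.32 (without control replicate 1, edgeR adjusted P = 0.802). The other spoke head genes were mixed in direction: Rsph1 had a log2 fold change of 0.56 (SE 0.27, edgeR adjusted P = 0.455; 0.35 to 0.69 with 1 library left out), Rsph9 of -0.022 and Rsph6a, the spoke head gene of sperm, of 0.03.

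The genes of the central pair and its projections showed no clear difference between the groups. The 6 genes Hydin, Spag6, Spag16, Spag17, Spef1 and Spef2 had log2 fold changes between -0.14 and 0.40. Of the 6, 0 had an unadjusted P under 0.05, as compared to 12.1% of all genes, and for so few genes 0 is near that share. Spag17, at 2 to 8 counts per library, had an SE of 0.53, so its difference is not known closely. Hydin (chr8:110266968-110610253, plus strand) had 1.54, 1.33, 1.08 and 1.44 CPM in the control libraries and 1.60, 1.15, 0.974 and 1.32 CPM in the morphine libraries, 2 groups that spanned almost the same range (log2 fold change -0.089, SE 0.23, edgeR adjusted P = 0.903). Spef1 (chr2:131170261-131174810, minus strand), whose product bundles the central microtubules, lay between 4.71 and 6.03 CPM in all libraries (log2 fold change -0.066, SE 0.14, edgeR adjusted P = 0.883). Spef2 (chr15:9578193-9748868, minus strand), a projection component, had 0.282 to 0.462 CPM in the control group and 0.357 to 0.636 CPM in the morphine group (log2 fold change 0.40, SE 0.31, edgeR adjusted P = 0.648). The transcript listed as Spag6 is named Spag6l by RefSeq.

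Tektins are filament proteins inside the doublet microtubules. Tekt2 (chr4:126322121-126325688, minus strand), whose promoter held the paired RFX cores above, had 2.49, 1.80, 1.51 and 3.15 CPM in the control libraries and 1.63, 1.03, 1.72 and 1.38 CPM in the morphine libraries. Control replicates 1 and 6 were the high libraries, and control replicate 5 lay among the morphine libraries. The log2 fold change was -0.63 (SE 0.27), with an unadjusted P of 0.0396 and an adjusted P of 0.381 in edgeR. Tekt2 shares 396 exonic bases with a transcript on the opposite strand, Gm12945. Tekt1 was likewise highest in control replicates 1 and 6, at 1.67 and 2.01 CPM, as compared to 0.608 to 1.03 CPM in the other 6 libraries (log2 fold change -0.42, SE 0.39, edgeR adjusted P = 0.677).

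Tekt5 (chr16:10357952-10395455, minus strand), a tektin known from sperm flagella, stood far above the other tektins, and its level varied within both groups. It had 35.4, 52.2, 35.3 and 22.3 CPM in the control libraries and 40.1, 23.5, 24.7 and 44.3 CPM in the morphine libraries. The lowest and the highest library of all 8 were both controls. The log2 fold change was -0.13 (SE 0.26, edgeR adjusted P = 0.872), and its sign turned without control replicate 2 (0.098) and without morphine replicate 4 (0.0030).

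The remaining Spag genes have no single role. Spag9 (chr11:93996046-94126093, plus strand), a scaffold of JNK signalling and of vesicle transport along microtubules, had 617, 571, 574 and 546 CPM in the control libraries and 666, 514, 535 and 543 CPM in the morphine libraries. The highest and the lowest value were both in the morphine group (log2 fold change -0.032, SE 0.11, edgeR adjusted P = 0.927). Spag4 (chr2:156065188-156069501, plus strand), a SUN domain protein of the nuclear envelope, had 3.37 to 4.57 CPM in the control group and 2.65 to 4.10 CPM in the morphine group (log2 fold change -0.32, SE 0.19, edgeR adjusted P = 0.539). Spag1, which helps to assemble dynein arms in the cytoplasm, had 5.08 to 8.37 CPM in the control group and 4.90 to 9.41 CPM in the morphine group. Spag5, a protein of the mitotic spindle, Spag7 and Spag8 had log2 fold changes of -0.13, 0.17 and -0.21.

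Beyond the members, other parts of the machinery gave a mixed picture. Of the 20 genes of dynein assembly and docking, 15 were in the table; 0 passed in edgeR after adjustment, 1 (Dync2h1, log2 fold change -0.35, SE 0.11) had an unadjusted P under 0.05, DESeq2 called 0, and the median log2 fold change was 0.0019. Dync2h1, though on this list, encodes the motor of retrograde intraflagellar transport and not a factor of dynein assembly or docking. Of 43 genes of the axonemal rulers, links and central pair, 31 were in the table, with a median of 0.056; 0 passed in edgeR, 5 were higher and 3 were lower at an unadjusted P under 0.05, and DESeq2 called 1 in each direction, Ccdc135 and Tppp3. Over all genes 12.1% had an unadjusted P under 0.05 and DESeq2 called 2.65%, the shares against which the counts of this and the following lists stand. Limma-voom called 0 genes of these lists and 0 of the lists of regulators, primary cilium genes and ependymal, tanycyte and choroid plexus markers described here. Ccdc135 (Drc7), a subunit of the nexin-dynein link, had 0.769, 1.06, 1.41 and 3.83 CPM in the control libraries and 3.79, 6.57, 4.03 and 8.53 CPM in the morphine libraries (log2 fold change 1.71, SE 0.46, edgeR adjusted P = 0.161). Control replicate 6 lay at the level of the lowest morphine library.

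Tppp3, a microtubule-bundling protein, went the other way, with 72.9, 68.1, 57.1 and 77.9 CPM in the control libraries and 42.8, 39.6, 49.1 and 49.2 CPM in the morphine libraries. Its groups did not overlap, and it missed the threshold in edgeR (log2 fold change -0.61, SE 0.12, adjusted P = 0.0642). Wdr63, an inner arm intermediate chain, had a log2 fold change of 1.97 (SE 0.61, edgeR adjusted P = 0.224) on 1 to 8 counts in the control libraries and 6 to 23 in the morphine libraries. For Ccdc135 and Wdr63, as for Dnali1, morphine replicate 8 was the highest library. Control replicate 6 was the highest control for Ccdc135 and Wdr63, but for Dnali1 only by 9 counts against 8. Among the controls, replicate 6 also had the highest sums of choroid plexus, tanycyte and telencephalic pyramidal neuron markers, though not of ependymal markers. The part of these markers was not tested.

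Of 17 regulators of multiciliated cells 13 were in the table, and 10 of them had a log2 fold change above 0 (median 0.21). By edgeR 0 passed after adjustment, 4 (Ccno, Rfx3, Rfx4 and E2f4) were higher at an unadjusted P under 0.05, and DESeq2 called 0. Rfx3, the RFX factor with the highest CPM of the list, had 60.7 to 99.7 CPM in the control group and 85.8 to 127 CPM in the morphine group (log2 fold change 0.48, SE 0.17, edgeR adjusted P = 0.274). The genes of the primary cilium and of intraflagellar transport, the cilium that neurons carry, were 34 of 36 in the table; 0 passed in edgeR, 2 were higher at an unadjusted P under 0.05, DESeq2 called 0, and the median log2 fold change was -0.034. Their summed level was 1145 to 1353 CPM in the control libraries and 1177 to 1266 CPM in the morphine libraries.

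Among markers of other cells of the ventricle wall, the ependymal list had a median log2 fold change of 0.41 with 13 of 18 genes above 0, and 4 genes (Dynlrb2, Tm4sf1, Trim71 and Tctex1d4) were higher at an unadjusted P under 0.05. The 10 tanycyte markers had a median of 0.45, with 4 genes higher at an unadjusted P under 0.05. In edgeR 0 genes of either list passed after adjustment, and DESeq2 called 0 and 1. Of the 13 markers of telencephalic pyramidal neurons, cells outside the PVT, 11 had a log2 fold change above 0 (median 0.99). At an unadjusted P under 0.05, 7 were higher and 1 lower. EdgeR called 1 (Bhlhe22, log2 fold change 1.13, SE 0.15, adjusted P = 0.0176), limma-voom called 2, and DESeq2 called 5 higher and 1 lower. Their summed level was 742 to 1055 CPM in the control libraries and 1027 to 1485 CPM in the morphine libraries. Of the 12 markers of midline thalamic neurons, the targeted region, 11 had a log2 fold change below 0 (median -0.29) and 3 were lower at an unadjusted P under 0.05; edgeR, DESeq2 and limma-voom called 0, and their summed level was 2729 to 3597 CPM in the control libraries and 1951 to 3444 CPM in the morphine libraries. All 10 oligodendrocyte markers had a log2 fold change above 0 (median 0.65), with 0 at an unadjusted P under 0.05 and 0 called by any of these tools; their summed level was 131 to 1279 CPM in the control libraries and 607 to 1642 CPM in the morphine libraries. Markers above 0 were 6 of 8 for the medial habenula (median 0.35) and 8 of 10 for astrocytes (median 0.37). For microglia and for endothelium they were 3 of 10 each (medians -0.095 and -0.29). EdgeR, DESeq2 and limma-voom called 0 genes of these 4 lists. The part of any of these markers in any difference given here was not tested.

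**Figure D4:**
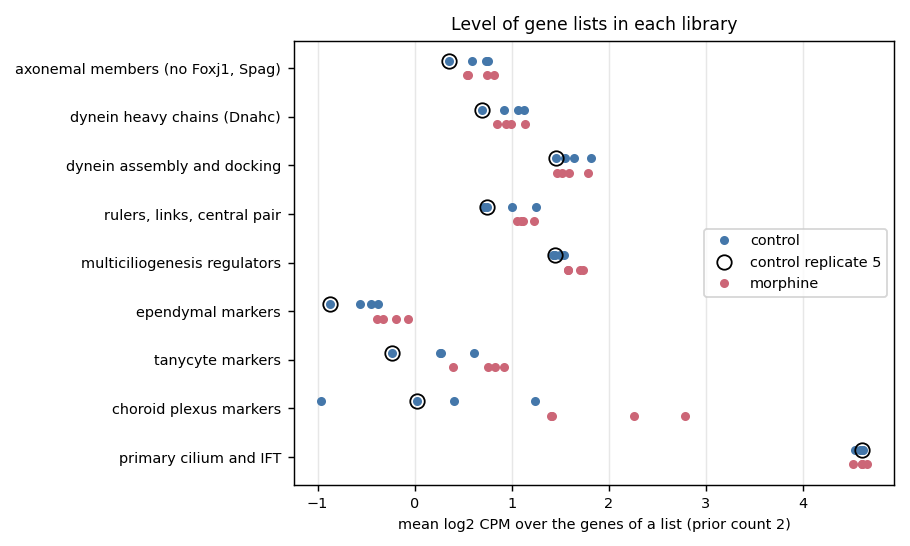
Mean log2 CPM over the genes of each list in each library (prior count 2); control replicate 5 is ringed. The choroid plexus markers differ most between the groups, the mean of the 17 axonemal members (those other than Foxj1 and Spag) does not separate them, and control replicate 5 has the lowest value for the axonemal members and for the heavy chains.

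Over the axonemal members as a whole, libraries of 1 group differed more from each other than the group means did. The mean log2 CPM over the 17 members other than Foxj1 and the Spag genes was 0.76, 0.59, 0.36 and 0.73 in control replicates 1, 2, 5 and 6, and 0.54, 0.75, 0.55 and 0.82 in morphine replicates 3, 4, 7 and 8. Control replicate 5 was the lowest of the 8. Of the 26 members with a count in every library, control replicate 5 was the lowest control library in 12, and of the 6 radial spoke genes in 4, among them Rsph1, Rsph4a and Rsph9; it was also lowest in 6 of the 11 heavy chains. Morphine replicate 3 was likewise the lowest of its group in 13 of the 26 members and in 4 of the 6 radial spoke genes, and in 3 of the 11 heavy chains. Without control replicate 5, the median log2 fold change of the 28 members was -0.18. EdgeR still called 0 of the 28, with 4 at an unadjusted P under 0.05. In that fit 20 of 18850 genes were called, and 2089 had an unadjusted P under 0.05.

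As a description, the genes of mean CPM of at least 1 whose log2 CPM followed this axonemal mean most closely over the 8 libraries were sought among 12971 genes. The closest 10 were 1700016K19Rik (Pearson's r = 0.958), 1700007K13Rik (r = 0.928), Nxn (r = 0.912), Ccdc123, Fam55d, Ptprg, Pex11a, Fmo1, Slco4a1 and Gstm1 (r = 0.847). All 8 points come from the same libraries as the mean itself, and the best of many genes is high by selection. Of these, 1700016K19Rik lay between 0.622 and 1.66 CPM and had a log2 fold change of 0.14.

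To ask whether the sexes differed, libraries labelled female and male were compared with condition in the model. By edgeR 0 of the 28 members had an adjusted P under 0.05, where 0.00528% of all genes passed (1 gene), and 0 of 28 had an unadjusted P under 0.05, as compared to 3.1% of all genes; DESeq2 and limma-voom called 0 members as well. The lowest unadjusted P was that of Spag4 (0.068, log2 fold change female over male -0.34), and the members were split evenly, 14 above 0 and 14 below. The difference between the sexes in the response to morphine, tested as an interaction, was likewise called in 0 of 28 members and 0.0% of all genes by edgeR, and in 0 members by DESeq2 and limma-voom; 0 members had an unadjusted P under 0.05, as compared to 1.72% of all genes. Without control replicate 5 these 2 comparisons again called 0 members by edgeR, where 5 of 18850 genes were called for sex.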

How the data were processed

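RNA of MOR-expressing cells was measured by TRAP-Seq in 8 libraries, grouped by the labels of the samples. The authors deposited a single table of raw counts (whole numbers, not normalized) with RefSeq transcripts as rows, on mm10 per the labels. The study's methods name Salmon, with an mm10 index and GC bias correction, and a matrix summed to genes; whether this table of transcripts came from that step is not given in the sources used here. It holds 24488 transcripts of 18939 genes, and the transcript with the highest total stood for its gene. All 8 count columns were used.

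For normalization TMM factors were used, and tests were run in edgeR 4.0.16 under R 4.3.3 (glmQLFit, glmQLFTest) over all genes, with Benjamini-Hochberg adjustment and a threshold of 0.05 for a call. EdgeR gives no standard error (SE), so each SE is the size of the log2 fold change divided by the square root of the test's F statistic. Single members were also compared by an exact two-sided permutation test on log2(CPM + 0.5) over 70 arrangements. Total counts were 31151106 to 47582947 per library, so counting error limits the genes with few counts, and PCR copies are not marked. P values measure the spread between libraries, each a pool of 2 dissections. Alternatives were DESeq2 1.42.0, limma-voom (limma 3.58.1), upper-quartile and RLE factors, a minimum of 10 counts in every library, filterByExpr, the sum over transcripts, sex in the model and each library left out; counting the Dnahc rows as members was added after the data had been seen. The scripts were tested on simulated data.

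Coordinates, promoters and overlaps are those of RefSeq and GENCODE vM21 on GRCm38 (27 members placed by transcript and 1, Tekt5, by symbol); 5 members (Foxj1, Rsph1, Rsph4a, Spag1 and Spag11b) had no promoter window in the table used. Whether counting used the strand is not stated, so overlapping genes are uncertain. Stretches of 50 bases were compared between GENCODE transcripts to find shared sequence. The members and the lists of genes were chosen with earlier results of these data known. Named genes are Foxj1, Hydin, Dnali1 and, in each family, the gene with the highest mean CPM and the one with the lowest P value for morphine, plus any member called or whose groups do not overlap, with the Dnahc genes treated as the dynein heavy chain family. Other genes named in passing were chosen after their values were seen. The labels give no batch.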

Additional observations from a re-analysis of the deposited data

How the results depend on the processing

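Over all genes, edgeR called 37 genes for morphine, DESeq2 502, limma-voom 23, filterByExpr left 14, at least 10 counts in every library 15, the sum over transcripts 22 and sex in the model 110; leaving out 1 library gave 0 (without morphine replicate 4 or 8) to 77 calls. For sex, edgeR called 1 gene, DESeq2 21, both stricter count filters 0, and leaving out 1 library gave 0 to 5. Of the members tested (24 under filterByExpr, 23 with at least 10 counts in every library, otherwise 28, of which Spag11b and Tekt3 had no adjusted P in DESeq2), 0 were called for morphine under the alternatives run, except for DESeq2 (1, Dnali1) and without morphine replicate 3 (1, Dnali1), so leaving out 1 library gave 0 to 1. For sex and for the interaction 0 of the members tested were called under the alternatives run. The median log2 fold change of the members stayed below 0 under each, between -0.18 (without control replicate 5) and -0.028 (without control replicate 1); with the 11 Dnahc genes added it was -0.089, with 0 called. Of 223 values of the 14 named genes under alternatives, 216 kept their sign and their side of the threshold, 3 passed the threshold (Dnali1 by DESeq2 and without morphine replicate 3, Dnahc9 by DESeq2), and 4 changed sign: Foxj1 without morphine replicate 8 (-0.071), Tekt5 without control replicate 2 (0.098) and without morphine replicate 4 (0.0030), and Spag9 without morphine replicate 4 (0.011). Leaving out 1 library gave -0.071 to 0.40 for Foxj1, -0.33 to 0.098 for Tekt5 and -0.12 to 0.011 for Spag9. The cause was not tested. Dnali1 has no value where at least 10 counts in every library were asked for. No paired analysis was possible because the control and morphine libraries share no replicate number. Depth limits Tekt3, Spag11b, Spag17, Tekt4 and Dnali1, which fell under 10 counts in at least 1 library.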
